A study of Mus musculus with 9 samples.

Results

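Activating transcription factor 4 (ATF4) and 9 genes known as its targets or partners under amino acid stress (Asns, Chac1, Trib3, Ddit3, Psat1, Phgdh, Shmt2, Sesn2 and Atf5) were followed by bulk RNAseq in mouse skeletal stem and progenitor cells. The 10 genes were chosen by their known place in this pathway, out of 52459 genes counted, and with earlier results of these data known. LepR+ cells, a stromal population of the bone marrow marked by the leptin receptor, came from tibiae and femurs digested with collagenase and were sorted by flow cytometry out of the non-hematopoietic cells. The 9 libraries came from C57B6 mice. They fell into 3 middle-aged-treated libraries (52 weeks, given sodium salicylate, an anti-inflammatory drug), 3 middle-aged libraries (52 weeks, untreated) and 3 young libraries (12 weeks, untreated). Dose, route and length of the treatment are not given in the sources used here, nor is the animal behind each replicate, so p-values measure the spread between these libraries, which may be partly technical. The comparisons ask how the cells differ with age and with salicylate at middle age.

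When a cell lacks amino acids or its secretory pathway is overloaded, kinases such as GCN2 and PERK phosphorylate the initiation factor eIF2. Most translation is then lowered, while the ATF4 message is translated more because of short upstream reading frames. ATF4 protein switches on genes that import and make amino acids and charge tRNAs, and in osteoblasts it is known for its part in matrix production. RNAseq measures the Atf4 message and those of its targets, not ATF4 protein.

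All 10 genes were detected in all 9 libraries and passed the filter of a mean of at least 10 normalized counts, which 14998 genes passed. A normalized count is the number of reads of a gene divided by 1 size factor per library, as the authors deposited it. Libraries held between 9902613 and 20746804 reads. Together the 10 genes took between 0.0241% and 0.0324% of the reads of a library. Lepr, the gene of the sorted receptor, had between 59657 and 75958 normalized counts in middle-aged-treated libraries, between 14455 and 57603 in middle-aged libraries and between 78029 and 102236 in young libraries. Antibody genes, which are transcribed by B-lineage cells, took between 1.53% and 8.33% of the reads in middle-aged-treated libraries, between 3.25% and 32.6% in middle-aged libraries and between 0.107% and 0.479% in young libraries. Middle-aged replicate 3 stood apart, with the most antibody reads, the lowest Lepr, the fewest genes with a read (16178) and the smallest size factor (0.364), so main results are also given without it. In middle-aged against young libraries 9 of 10 tested neutrophil markers and 7 of 7 pan-leukocyte markers were called higher. None of 12 LepR+ niche markers was called (10 of 12 were called lower without middle-aged replicate 3), and all 12 were lower in middle-aged libraries, with a median of −1.40 on the log2 scale, except when these markers themselves set the scale.

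Positions are those of GENCODE M21 on GRCm38. Atf4 lies on chromosome 15 (80255184 to 80257541, plus strand), and Atf5 lies on chromosome 7 (44812256 to 44816658, minus strand). Asns lies on chromosome 6 (7675169 to 7693254, minus strand). Chromosome 2 holds Chac1 (119351229 to 119354381, plus strand) and Trib3 (152337422 to 152344032, minus strand). Chromosome 10 holds Ddit3 (127290774 to 127296288, plus strand) and Shmt2 (127517123 to 127522444, minus strand). The serine synthesis genes Psat1 and Phgdh lie on chromosome 19 (15904678 to 15947337, minus strand) and chromosome 3 (98313170 to 98339990, minus strand), and Sesn2 lies on chromosome 4 (132492032 to 132510501, minus strand). Ddit3 shares 68 bp of exon (3.97%) with Mars on the other strand, and Atf5 shares 82 bp (4.11%) with Nup62 and Il4i1. Whether the counting used strand is not stated, so reads in these stretches cannot be assigned to 1 gene. Phgdh has near-identical processed copies, with up to 98.7% identity, so its counts are uncertain.

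ATF4 binds DNA as a dimer, often with a C/EBP protein, at a composite site whose core is written TGATGNAA. This core was searched on both strands of the RefSeq promoter windows (GRCm38.p6), from 250 bases before to 50 bases after each annotated start. All 10 genes had a window, 12 windows in all. The core was found in 3 of these 12 windows (25.0%), those of Asns, Chac1 and Trib3, against 3.97% of 32851 windows of all genes and 2.42% of 13181 windows of the genes tested here. Since the genes were chosen as known ATF4 targets or partners, a share above that of all genes is no independent result. The 30 bases around each match are given 5′ to 3′ on the gene's strand, with the 8 matching bases in capitals. Asns (9.13-fold) and Chac1 (277-fold) are among the genes whose counts differed most between libraries. Psat1 (11.52-fold) is too, but had no match. A match is a string of letters and not evidence of binding.
Asns: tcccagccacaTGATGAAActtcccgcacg
Chac1: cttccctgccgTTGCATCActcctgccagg
Trib3: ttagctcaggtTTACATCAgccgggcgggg
The Asns match (chr6:7693225-7693232) reads on the gene's strand, lies 23 to 16 bases before the RefSeq start and falls in an exon of the GENCODE model. The Chac1 match (chr2:119351049-119351056) is on the other strand, 193 to 186 bases before the start. The Trib3 match (chr2:152344039-152344046) is on the other strand, 15 to 22 bases after the RefSeq start and just upstream of the GENCODE gene. No match in the other windows says only that these letters are absent there.

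Levels of different genes were compared per kilobase of the longest annotated transcript. Atf4 was the most abundant of the 10, with a mean of 1119 normalized counts per kb over the 9 libraries and a range of 811 to 1936, above every library of every other gene but Chac1, which reached 909 per kb in middle-aged replicate 3. Atf5 (208 per kb), Asns (205 per kb), Chac1 (149 per kb), Ddit3 (144 per kb), Shmt2 (110 per kb), Psat1 (89.9 per kb), Phgdh (61.1 per kb) and Sesn2 (44.9 per kb) followed, and each overlapped its neighbour in this order. Trib3 was last at 8.04 per kb, and its highest library, 17.97 per kb, lay below the lowest of Sesn2, 32.2 per kb. Chac1 owed its place above Ddit3 to 1 library, since it fell to seventh without middle-aged replicate 3. The genes also differed in how much they varied. Chac1 spanned 277-fold between its lowest and highest library, Psat1 11.52-fold and Asns 9.13-fold, whereas Atf4, Shmt2 and Sesn2 spanned 2.39-fold, 2.09-fold and 2.06-fold in normalized counts.

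The Atf4 message itself varied little. It had 1884, 1638 and 1926 normalized counts in middle-aged-treated libraries, 1946, 2353 and 3909 in middle-aged libraries and 2342, 1696 and 2636 in young libraries. The 3 middle-aged-treated libraries lay below the 3 middle-aged ones, by a narrow margin, while middle-aged and young libraries overlapped and only middle-aged replicate 3 stood out. That library had the smallest size factor (0.364), the fewest reads in all (9902613) and the fewest Atf4 reads of the 9 (1421), so its high value depends on the scaling. Differences were tested with limma, a linear model fitted over all 14998 genes on log2 of the count plus 1, with p-values adjusted over all of them and a call at an adjusted p under 0.05. The log2 fold change of Atf4 was 0.26 ± 0.28 (SE, limma adjusted p = 0.603) in middle-aged against young libraries and −0.032 without middle-aged replicate 3. It was −0.53 ± 0.28 (limma adjusted p = 0.496) in middle-aged-treated against middle-aged libraries. Over the 9 libraries the SD of log2 Atf4 was 0.39, against a median of 0.55 over all genes tested. In bulk samples a difference in RNA per cell and a difference in the number of cells that hold the RNA cannot be told apart, which holds for every result given here.

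**Figure D1:**
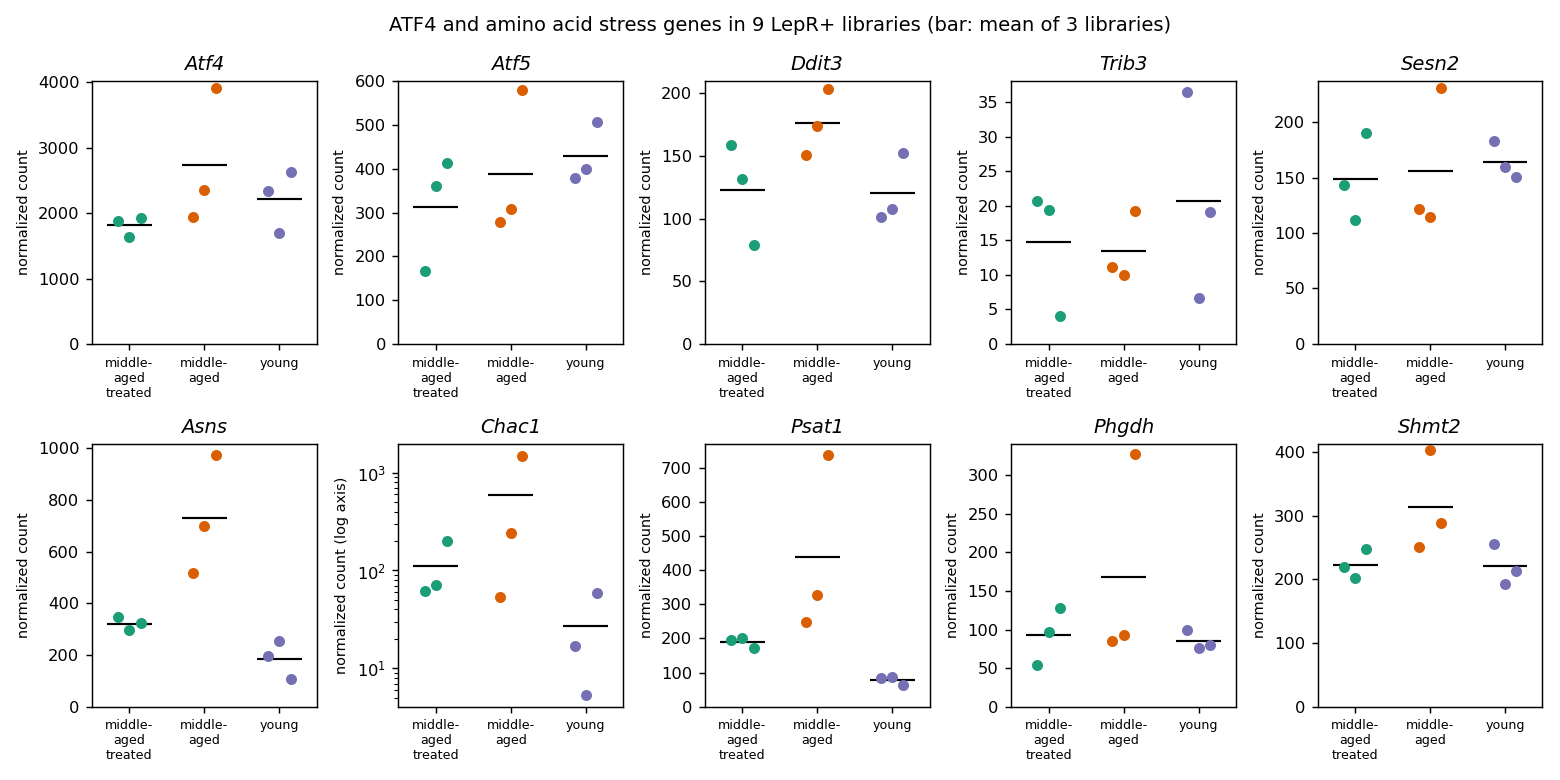
Normalized counts (y axis; log axis for Chac1 only) of the 10 genes in each middle-aged-treated, middle-aged and young library, with the mean of 3 libraries as a bar. Asns and Psat1 are high in all 3 middle-aged libraries and Psat1 is lowest in the 3 young ones, whereas Atf5, Trib3 and Sesn2 overlap between all conditions.

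The transcription factors and regulators around ATF4 showed no called change. Atf5, a related factor whose message is also translated under eIF2 stress, averaged 314 ± 129 normalized counts in middle-aged-treated, 389 ± 166 in middle-aged and 429 ± 68.7 in young libraries (SD, n = 3 each). Ddit3, which encodes the stress factor CHOP, averaged 123 ± 40.5, 176 ± 26.5 and 121 ± 28.0 normalized counts in middle-aged-treated, middle-aged and young libraries (SD, n = 3 each). The middle-aged libraries had the highest Ddit3 mean, but the ranges overlapped with both other conditions, since middle-aged-treated replicate 1 (159) and young replicate 3 (153) exceeded middle-aged replicate 1 (151). Trib3, a pseudokinase that restrains AKT and ATF4, had only 4 to 41 reads per library and averaged 14.7 ± 9.19 normalized counts in middle-aged-treated, 13.5 ± 5.05 in middle-aged and 20.7 ± 14.98 in young libraries (SD, n = 3 each). The 3 conditions overlapped for Trib3 and no comparison called it. Sesn2, a leucine sensor that holds back mTORC1, averaged 148 ± 39.2 normalized counts in middle-aged-treated, 156 ± 65.3 in middle-aged and 164 ± 16.8 in young libraries (SD, n = 3 each). The log2 fold changes of Sesn2 lay within 0.18 of zero in all 3 comparisons.

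Asns, the asparagine synthetase gene and a standard readout of ATF4 activity, followed the conditions in every library. It had 346, 295 and 322 normalized counts in middle-aged-treated libraries, 518, 697 and 974 in middle-aged libraries and 197, 255 and 107 in young libraries. No middle-aged-treated library overlapped with a middle-aged or a young one, and the middle-aged libraries lay above all others. The means were 321 ± 25.4, 729.8 ± 229 and 186 ± 74.7 normalized counts (SD, n = 3 each) in middle-aged-treated, middle-aged and young libraries. Asns rose in middle-aged against young libraries by 2.01 ± 0.35 on the log2 scale (SE, limma adjusted p = 0.0226), a 4.02-fold change, and by 1.77 without middle-aged replicate 3 (adjusted p = 0.0104). In middle-aged-treated against middle-aged libraries the log2 fold change was −1.14 ± 0.35 (SE, limma adjusted p = 0.496), and against young libraries it was 0.87 ± 0.35 (SE, limma adjusted p = 0.641).

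The serine pathway feeds glycine and one-carbon units. Of its 3 genes here only Psat1 was called, and the difference between the genes was not tested. Psat1, the phosphoserine aminotransferase of this pathway, had 196, 202 and 172 normalized counts in middle-aged-treated libraries, 248, 328 and 737 in middle-aged libraries and 84.4, 88.0 and 64.0 in young libraries. As with Asns, the 3 conditions did not overlap, with middle-aged-treated libraries between the others. Psat1 rose in middle-aged against young libraries by 2.31 ± 0.40 on the log2 scale (SE, limma adjusted p = 0.0210), a 4.97-fold change, and by 1.86 without middle-aged replicate 3 (adjusted p = 0.00777). It was −1.04 ± 0.40 (SE, limma adjusted p = 0.496) in middle-aged-treated against middle-aged libraries. Against young libraries it was 1.27 ± 0.40 (SE, limma adjusted p = 0.395), which became a call only without middle-aged replicate 3 (adjusted p = 0.0427).

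Phgdh, the dehydrogenase that opens the serine pathway, had 53.6, 97.4 and 127 normalized counts in middle-aged-treated libraries, 85.7, 93.4 and 327 in middle-aged libraries and 99.5, 76.6 and 79.7 in young libraries. Its middle-aged mean was raised by replicate 3 alone, and the other 2 middle-aged libraries lay within the range of the young ones. The log2 fold change of Phgdh in middle-aged against young libraries was 0.70 ± 0.56 (SE, limma adjusted p = 0.468) and 0.08 without middle-aged replicate 3. Shmt2, which splits serine into glycine and a one-carbon unit in mitochondria, had 219, 202 and 248 normalized counts in middle-aged-treated libraries, 250.1, 403 and 289 in middle-aged libraries and 255, 193 and 213 in young libraries. Middle-aged-treated libraries lay just below middle-aged ones and overlapped with young ones. Its log2 fold change was −0.47 ± 0.29 (SE, limma adjusted p = 0.517) in middle-aged-treated against middle-aged libraries and 0.49 ± 0.29 (SE, limma adjusted p = 0.316) in middle-aged against young libraries.

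Chac1, whose enzyme breaks down glutathione and which is induced by ATF4 and CHOP, was the most variable. It had 62.0, 70.3 and 202 normalized counts in middle-aged-treated libraries, 54.0, 244 and 1488 in middle-aged libraries and 16.9, 5.38 and 58.4 in young libraries, where 9 to 52 reads stood behind each value. Young libraries were all below middle-aged-treated ones, and young replicate 3 exceeded middle-aged replicate 1. The log2 fold change of Chac1 was 3.84 ± 1.12 in middle-aged against young libraries (SE, limma adjusted p = 0.0890), the largest of the 10 genes but with the largest error. Without middle-aged replicate 3 it was 2.62 (adjusted p = 0.107). It was −1.49 ± 1.12 (SE, limma adjusted p = 0.584) in middle-aged-treated against middle-aged libraries, and −0.26 without middle-aged replicate 3. DESeq2 on the recovered reads called the difference between middle-aged and young libraries (log2 fold change 4.51, adjusted p = 0.00567), whereas edgeR did not (4.46, adjusted p = 0.0811), and over 22 alternatives the adjusted p ran between 0.00567 and 0.247.

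Read across all 10 genes, 2 were called in middle-aged against young libraries, Asns and Psat1, both higher. Over all 14998 genes 3.01% were called, 2.14% higher and 0.873% lower. The split over all genes was 321 higher and 131 lower, and 883 higher and 13 lower when libraries were scaled by the LepR+ niche markers, or 60 higher and 8 lower when scaled by the total. The ranges of the 3 middle-aged and 3 young libraries were apart for the same 2 genes, against 27.5% of all genes in either direction and 12.4% with middle-aged libraries higher. The median log2 fold change of the 10 genes was 0.52, against −0.08 over all genes tested, and 0.26 against −0.029 without middle-aged replicate 3. Of the 10 genes 7 were above zero, against 46.4% of all genes (10 when scaled by the niche markers, 6 when scaled by the total). Scaling moved all values together. The median of all genes in this comparison was −0.13 with TMM factors, −0.56 when scaled by the total and 1.24 when scaled by the niche markers. Relative to that median Asns stood at 2.07 to 2.09, Psat1 at 2.37 to 2.40, Chac1 at 3.86 to 3.93 and Atf4 at 0.33 to 0.34 under these 4 scalings. The Asns and Psat1 calls lay close to the threshold. The Asns call was lost without middle-aged replicate 2 (adjusted p = 0.0675), young replicate 1 (0.0726) or young replicate 3 (0.0645), all by limma, and over 22 alternatives the adjusted p of Asns ran between 2.35e-05 and 0.0921. The Psat1 call was lost without middle-aged replicate 2 (limma adjusted p = 0.0640) or any 1 of the 3 young libraries (0.0730 to 0.0800), with a range of 3.26e-06 to 0.0800 over its alternatives.

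**Figure D2:**
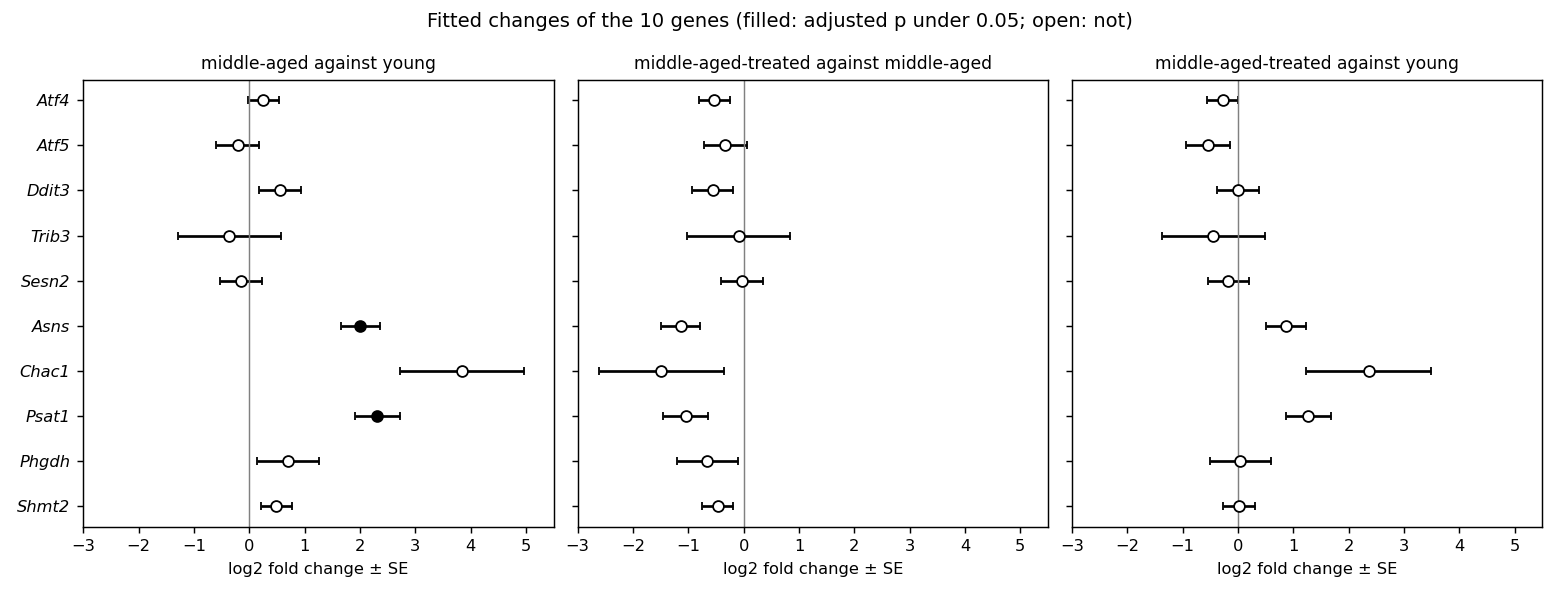
Fitted log2 fold changes (x axis, log2 of normalized count plus 1) with their SE for the 10 genes in the 3 comparisons, filled where the limma adjusted p was under 0.05. Asns and Psat1 are filled in middle-aged against young libraries, no gene is filled elsewhere, and all 10 points lie below zero in middle-aged-treated against middle-aged libraries, 4 of which turned positive when libraries were scaled by the total.

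In middle-aged-treated against middle-aged libraries limma called none of the 10 genes and 0 of 14998 genes (0.0%), with 1464 genes at an unadjusted p under 0.05, and on the recovered reads edgeR called 0 and DESeq2 44 genes. All 10 genes had a negative log2 fold change, against 45.3% of all genes tested, but Trib3, Shmt2, Sesn2 and Atf5 were positive when scaled by the total, Sesn2 also with TMM factors and Trib3 also by edgeR and DESeq2. Their median was −0.54, against 0.09 over all genes, and all 10 stayed below the median of all genes under each of the 4 scalings. Without middle-aged replicate 3 the median of the 10 genes was −0.25, and 2 of them, Trib3 and Sesn2, were positive by limma (with edgeR also Phgdh and Atf5). The ranges of the 3 middle-aged-treated libraries lay below those of the 3 middle-aged ones for Atf4, Asns, Psat1 and Shmt2, 4 of 10 genes, against 5.9% of all genes. Both this comparison and that of middle-aged with young libraries use the same middle-aged libraries. For Asns their log2 fold changes were −1.14 and 2.01, for Psat1 −1.04 and 2.31, for Chac1 −1.49 and 3.84 and for Atf4 −0.53 and 0.26.

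Against young libraries none of the 10 genes was called in middle-aged-treated libraries, while 31 genes (0.207%) were called over the whole table, and DESeq2 and edgeR also called none of the 10. The ranges were apart, with middle-aged-treated libraries higher, for Asns, Chac1 and Psat1, 3 of 10 genes against 8.99% of all genes. The log2 fold change of Chac1 was 2.36 ± 1.12 (SE, limma adjusted p = 0.766). Of the other 7 genes, Atf4 stood at −0.27, Atf5 at −0.54 and Trib3 at −0.45, and Ddit3, Phgdh, Shmt2 and Sesn2 lay within 0.18 of zero. The median of the 10 genes was 0.01, against −0.01 over all genes tested. A test of any difference among the 3 conditions (limma moderated F) called 97 genes (0.647%) and none of the 10, with adjusted p = 0.0635 for Asns and 0.0628 for Psat1.

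Counts were also set against Atf4 within each library, which takes the size factor out. Asns stood at 18.4%, 18.02% and 16.7% of the Atf4 count in middle-aged-treated libraries, at 26.6%, 29.6% and 24.9% in middle-aged libraries and at 8.42%, 15.03% and 4.05% in young libraries. Psat1 stood at 10.4%, 12.3% and 8.91% of the Atf4 count in middle-aged-treated libraries, at 12.7%, 13.9% and 18.9% in middle-aged libraries and at 3.60%, 5.19% and 2.43% in young libraries. For both genes the 3 conditions kept apart in these ratios as well, with middle-aged-treated libraries between the other two. Relative to Atf4, middle-aged libraries lay above young ones for Asns, Chac1 and Psat1, against 7.59% of 14997 genes, and below them for Atf5, against 12.0% of genes. Middle-aged-treated libraries lay below middle-aged ones for Asns and Psat1, against 1.49% of genes, and above them for Sesn2, against 18.1% of genes. Middle-aged-treated libraries lay above young ones for Asns, Chac1, Psat1 and Shmt2, against 13.7% of genes. These ratios were not tested. Shmt2 averaged 12.3%, 12.5% and 10.1% and Ddit3 6.85%, 6.78% and 5.49% of the Atf4 count in middle-aged-treated, middle-aged and young libraries.

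**Figure D3:**
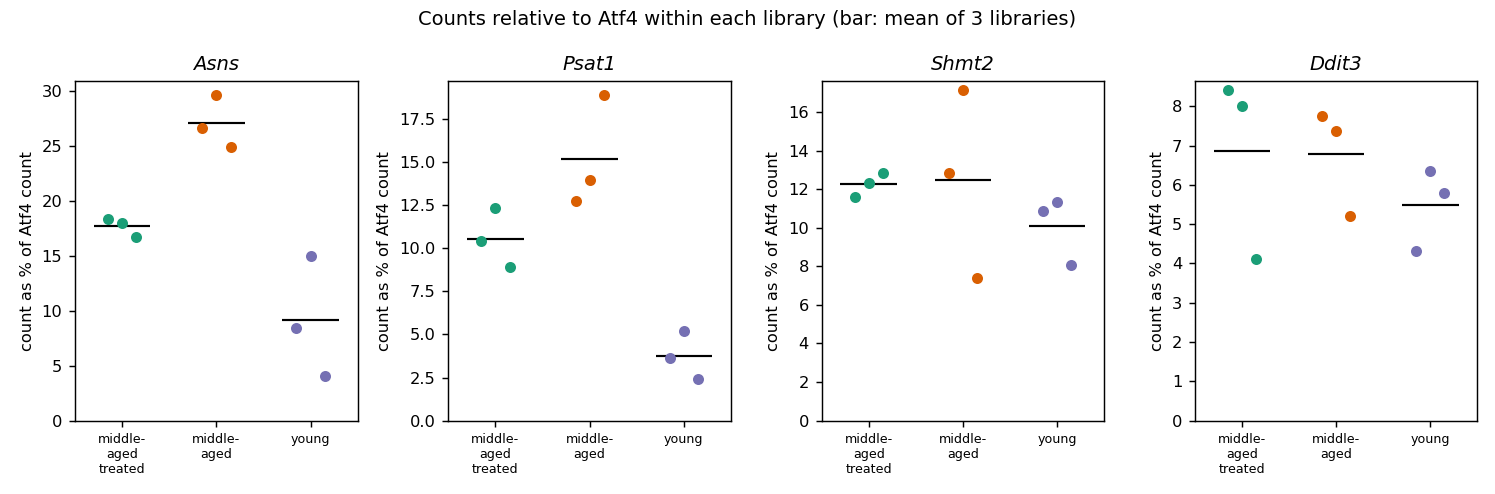
Counts of Asns, Psat1, Shmt2 and Ddit3 as a percentage of the Atf4 count of the same library (y axis) in middle-aged-treated, middle-aged and young libraries, with the mean of 3 libraries as a bar. Asns and Psat1 separate the 3 conditions, with middle-aged libraries at 24.9% to 29.6% for Asns, while Ddit3 overlaps between all of them.

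Secretory B-lineage cells are known for a strong unfolded protein response, so antibody reads were set beside the 10 genes, a check made after the values were seen. Middle-aged replicate 3, with 32.6% antibody reads, held the highest normalized count of 8 of the 10 genes. The exceptions were Shmt2, highest in middle-aged replicate 2, and Trib3, highest in young replicate 1. This library also had the smallest size factor (0.364) and the highest normalized total (27239985), so that number depends on the scaling. Its Atf4 reads, for example, were the fewest of the 9 libraries (1421), as were its reads in all (9902613). The same library held the highest summed B cell (7356), neutrophil (269726) and pan-leukocyte (26075) markers and the lowest macrophage markers (2388). The share of all genes that were highest there is not given here. Chac1 followed the order of the antibody share within all 3 conditions. Atf4, Phgdh and Atf5 did so in 2 conditions, Asns, Psat1 and Ddit3 in 1, and Trib3, Shmt2 and Sesn2 in none. Within every condition, however, the antibody share rose as the size factor fell. Size factors of replicates 1 to 3 were 1.55, 1.29 and 0.974 in middle-aged-treated and 1.17, 0.899 and 0.364 in middle-aged libraries. In young libraries they were 1.13, 1.67 and 0.891. The order of the antibody share and that of the scaling thus cannot be told apart, and the share over all genes is not given here. Middle-aged-treated replicate 3 took 8.33% antibody reads, more than middle-aged replicate 1 at 3.25%, and had lower Asns (322 against 518 normalized counts) and Psat1 (172 against 248) but higher Chac1 (202 against 54.0). Summed plasma cell markers ran between 8911 and 50266 normalized counts in middle-aged-treated libraries, between 16400 and 102800 in middle-aged libraries and between 5074 and 7064 in young libraries. Of 10 such markers tested, 3 were called higher in middle-aged against young libraries, and Jchain, the joining chain of secreted antibody, had reads in every library. Summed neutrophil markers ran between 102260 and 175072 normalized counts in middle-aged-treated, between 160986 and 269726 in middle-aged and between 44575 and 71055 in young libraries. The part of these cells in the Asns, Psat1 and Chac1 values was not tested.

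**Figure D4:**
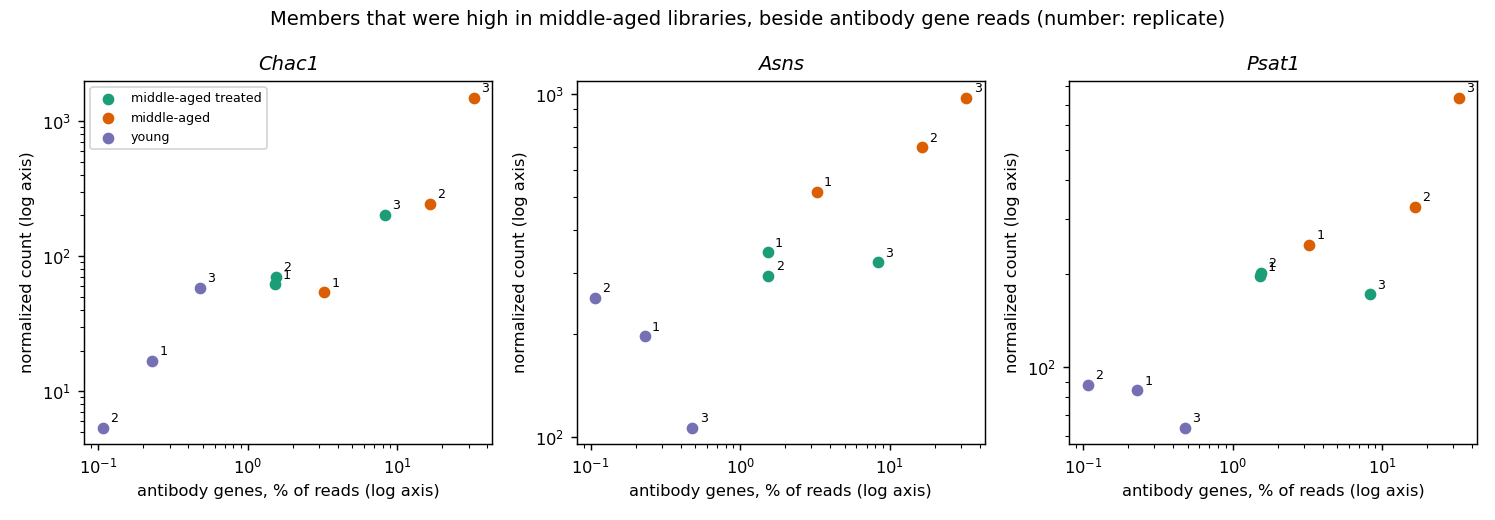
Normalized counts of Chac1, Asns and Psat1 (y axis, log) against the share of reads from antibody genes (x axis, %, log) in middle-aged-treated, middle-aged and young libraries, each point a library with its replicate number. Chac1 is ordered by the antibody share within each condition, and middle-aged replicate 3 is at the upper right of all 3 panels. Within each condition the antibody share also rises as the size factor falls.

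Around these 10 genes, 9 lists of the wider pathway held 108 tested genes. In middle-aged against young libraries 2 of them were called higher and 2 lower, 4 of 108 genes against 3.01% of all genes tested, so the share of calls was near that of all genes. None was called in the other comparisons. All 4 calls were kept without middle-aged replicate 1 or 3, and each was lost on leaving out 1 of the remaining 7 libraries, whichever it was. Slc7a11, the cystine importer, rose by 1.502 ± 0.32 on the log2 scale (SE, limma adjusted p = 0.0382), with means of 857 ± 183, 1027 ± 424 and 352 ± 91.8 normalized counts (SD, n = 3 each) in middle-aged-treated, middle-aged and young libraries. Slc1a5, a glutamine transporter, fell by 1.05 on the log2 scale (limma adjusted p = 0.0435), with means of 1525, 1094 and 2255 normalized counts in middle-aged-treated, middle-aged and young libraries. The 10 amino acid transporters thus held a call in each direction, with a median of 0.998. Creld2, an endoplasmic reticulum chaperone, rose by 3.36 ± 0.77 (SE, limma adjusted p = 0.0465), and Vldlr, a lipoprotein receptor known as an ATF4 target, fell by 2.04 (limma adjusted p = 0.0498). Creld2 had 191, 338 and 596 normalized counts in middle-aged-treated libraries, 366, 2029 and 5359 in middle-aged libraries and 135, 166 and 161 in young libraries, so it too was highest in middle-aged replicate 3, and without that library its log2 fold change was 2.48 (limma adjusted p = 0.0240).

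The lists are given by their medians beside the −0.08 over all genes tested, since scaling shifts both together. Enzymes of serine, glycine and proline synthesis and of one-carbon metabolism had a median log2 fold change of 0.83 in middle-aged against young libraries, with 12 of 13 tested genes above the median of all genes under each of the 4 scalings. Without middle-aged replicate 3 it was 0.75, with 9 of 13 above the median of all genes. Aldh18a1, the first enzyme of proline synthesis, averaged 259 ± 62.7, 449 ± 167 and 259.6 ± 20.8 normalized counts in middle-aged-treated, middle-aged and young libraries (SD, n = 3 each). Cytosolic aminoacyl-tRNA synthetases had a median of 0.38, with 19 of 20 genes above the median of all genes under each scaling and no call. Without middle-aged replicate 3 it was 0.17, with 16 of 20 above. Nars, which charges asparagine tRNA, averaged 1097 ± 197, 2008 ± 1202 and 1159 ± 274 normalized counts in middle-aged-treated, middle-aged and young libraries (SD, n = 3 each). Its log2 fold change in middle-aged against young libraries was 0.66, and 0.21 without middle-aged replicate 3 (limma adjusted p = 0.296 and 0.685). The ATF6 and XBP1 arm of the unfolded protein response had the highest median among the 9 lists, 1.27, with 17 of 17 above the median of all genes under each scaling and 1 call (Creld2). Summed over this list, the libraries held 37261 to 53240 normalized counts in middle-aged-treated cells, 41118, 80931 and 198467 in middle-aged cells and 34466 to 39088 in young cells. Middle-aged replicate 3 again lay far above the others, as it did in the summed plasma cell markers (16400, 21330 and 102800 in the 3 middle-aged libraries), and the part of these cells was not tested. Without it the median of the list was 0.67, with 16 of 17 above the median of all genes. In middle-aged-treated against middle-aged libraries the lists of synthesis enzymes, tRNA synthetases and the ATF6 and XBP1 arm had medians of −0.97, −0.39 and −1.18, and of −0.50, −0.25 and −0.36 without middle-aged replicate 3.

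None of the regulators upstream of ATF4 was called. The eIF2 kinases had a median log2 fold change of 0.07 in middle-aged against young libraries over 4 genes. Eif2ak3, which encodes PERK, had 215, 325 and 474 normalized counts in middle-aged-treated libraries, 355, 482 and 1312 in middle-aged libraries and 275, 276 and 181 in young libraries. The middle-aged libraries lay above the young ones and overlapped with the middle-aged-treated ones. The log2 fold change of Eif2ak3 was 1.34 ± 0.47 (SE, limma adjusted p = 0.133) in middle-aged against young libraries, 0.78 without middle-aged replicate 3, and −0.92 ± 0.47 (SE, limma adjusted p = 0.496) in middle-aged-treated against middle-aged libraries. Without middle-aged replicate 1 it was called against young libraries (limma adjusted p = 0.0382). Eif2ak1, the heme-regulated kinase, averaged 462 ± 102, 477 ± 126 and 464 ± 9.02 normalized counts in middle-aged-treated, middle-aged and young libraries (SD, n = 3 each). Subunits of eIF2, eIF2B and the eIF2 phosphatase had a median of 0.11, with no call among 10 genes. Partners and regulators of ATF4, among them the AP-1 genes Fos and Jun, had a median of −0.53, with no call among 10 genes. Fos averaged 24890 ± 4088, 19357 ± 9883 and 30852 ± 3012 normalized counts in middle-aged-treated, middle-aged and young libraries (SD, n = 3 each). The mTORC1 and GATOR partners of sestrins had a median of −0.11 and no call among 14 genes, and the other ATF4 targets a median of 0.12 with Vldlr as the single call among 10. Without middle-aged replicate 3 the median of the other ATF4 targets was −0.23, with Vldlr and Vegfa called lower, and that of the partners and regulators was −0.36, with Cebpa called lower. Ranked among 10718 genes (mean of 50 normalized counts or more) by the root mean square difference of their centred log2 pattern, the genes most like Atf4 over the 9 libraries were Use1 (0.11), Psmc3 (0.11), Mff (0.12), Chmp1a (0.13) and Ubl3 (0.14). None of the other 9 genes was among them, but Trib3, with a mean of 16.3, fell below this filter and was not ranked. Sesn2 came 764th and Shmt2 1057th, while Asns came 7513th, Psat1 7992nd and Chac1 10222nd. The difference was not scaled by the spread of each gene. Genes that varied much more than Atf4, such as Chac1, Psat1 and Asns, therefore came late whether or not they moved with it.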

How the data were processed

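RNAseq was done on 9 libraries, 3 each of middle-aged-treated, middle-aged and young LepR+ cells. Per the labels and the methods, the authors used bcl2fastq, STAR (mm10, GRCm38) and featureCounts. The signal values deposited by the authors are counts that they normalized with DESeq2. Tool versions, annotation and strand setting are not given in the sources used here. All 9 columns were mapped from the labels. Values were turned back into whole reads with 1 factor per library, and 100.0% came out whole within 0.1 read. The depth was 9902613 to 20746804 reads, so that 3 reads, the limit a count of 0 allows for counting error only, equalled 1.79 to 8.25 normalized counts.

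The main test was limma 3.58.1 (R 4.3.3), after a pseudocount of 1 and a log2 transform, which understates changes of low genes. The moderation used a trend on the mean, over 14998 genes averaging 10 or more, in 1 fit of all 9 libraries. A call was a Benjamini-Hochberg adjusted p under 0.05. Because the deposited values were normalized, count tools were alternatives: on recovered reads edgeR 4.0.16 called 343, 0 and 2 genes and DESeq2 1.42.0 called 1655, 44 and 298 genes in middle-aged against young, middle-aged-treated against middle-aged and middle-aged-treated against young libraries. Alternatives were other pseudocounts, filters, scalings and moderation, a replicate block, fits of 2 conditions alone and leaving out each library. On simulated data for middle-aged against young libraries (14548 genes), 41% of 4-fold and 75% of 16-fold changes were called, with 11 false calls.

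The 10 genes and the lists were chosen with earlier results of these data known. Named beside them were up to 4 called genes per pathway list, or else its 2 most abundant, up to 2 markers per cell type and the 5 genes most like Atf4. Not every gene this rule names is described. Positions came from GENCODE M21 (48007 symbols, 91.5%, matched 1 gene) and promoter windows from RefSeq (GRCm38.p6). More than 1 gene model carries the symbol Ddit3, of which the longer was used for its length.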

Additional observations from a re-analysis of the deposited data

How the results depend on the processing

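Of 657 values of the 10 genes under alternatives, 597 kept their direction and their side of the threshold, 13 lost a call, 5 gained one and 42 changed sign, in 15 of the gene and comparison pairs. The cause of these changes was not tested unless stated. Precision is limited by 3 libraries per condition and, for Trib3 and young Chac1, by few reads. The edgeR fit without middle-aged replicate 3 and the pathway lists without a library were chosen after seeing the data.

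Of the 10 genes, the number called in middle-aged against young libraries was 0 when scaled by the total, without the trend in the moderation and in the fit of those 2 conditions alone, and 0 to 3 when a library was left out, against 2. Asns then had adjusted p = 0.0921, 0.0699 and 0.0794, and Psat1 0.0589, 0.0634 and 0.0792 by limma. Chac1 was called when scaled by the niche markers (5.10), by DESeq2 (4.51) and without middle-aged replicate 1 (4.996, adjusted p = 0.0159). The F test called 0 to 3 of the 10 genes when a library was left out and 2 by edgeR without middle-aged replicate 3, against 0. DESeq2, with a likelihood ratio test among the 3 conditions in its place, called 3. In middle-aged-treated against young libraries 0 to 1 of the 10 were called when a library was left out.

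Over all genes, 452 were called in middle-aged against young libraries, and 234 without the filter, 68 when scaled by the total, 896 when scaled by the niche markers, 78 without the trend, 1655 by DESeq2, 46 in the fit of 2 conditions alone and 28 (without middle-aged replicate 2) to 2126 (without middle-aged replicate 1) when a library was left out. In middle-aged-treated against middle-aged libraries 0 genes were called, and 1 without the trend, 44 by DESeq2 and 0 whichever library was left out. In middle-aged-treated against young libraries 31 were called, and 16 without the filter, 18 when scaled by the total, 16 when scaled by the niche markers, 19 without the trend, 2 by edgeR, 298 by DESeq2, 429 in the fit of 2 conditions alone, 216 by edgeR without middle-aged replicate 3 and 4 (without young replicate 2) to 379 (without middle-aged replicate 3) when a library was left out.

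The labels do not say whether the replicate numbers pair the libraries, and the values do not settle it. Deviations of same-numbered libraries correlated at −0.01 to 0.12, with 1 of 9 pairs above 0.1. Those of differently numbered libraries correlated at −0.10 to 0.05. When each library was set against each other condition, the highest correlation was with its own number in 14 of 18 cases. The main test used no block. With the replicate block 284 genes were called in middle-aged against young libraries, Chac1 among them (adjusted p = 0.0407 by limma), and 3 of the 10 genes in all.

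Several log2 fold changes turned round. In middle-aged against young libraries Atf4 was −0.22 when scaled by the total and −0.032 by edgeR without middle-aged replicate 3, and scaling by the niche markers gave 0.88 for Trib3, 1.15 for Sesn2 and 1.10 for Atf5. In middle-aged-treated against middle-aged libraries scaling by the total gave 0.39 for Trib3, 0.043 for Shmt2, 0.49 for Sesn2 and 0.18 for Atf5, TMM gave 0.034 for Sesn2, and Trib3 was 0.18 by edgeR and 0.15 by DESeq2. There edgeR without middle-aged replicate 3 gave 0.48 for Trib3, 0.044 for Phgdh, 0.32 for Sesn2 and 0.090 for Atf5. In middle-aged-treated against young libraries scaling by the niche markers gave 0.19 for Atf4, 0.45 for Ddit3 and 0.29 for Sesn2. Ddit3 there was 0.015 with TMM, 0.029 when scaled by the total, 0.052 by edgeR, 0.038 by DESeq2 and 0.053 by edgeR without middle-aged replicate 3.

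With a library left out, values in middle-aged against young libraries ran between −0.032 and 0.47 for Atf4, between −0.98 and 0.18 for Trib3 and between −0.47 and 0.035 for Sesn2. In middle-aged-treated against middle-aged libraries they ran between −0.45 and 0.59 for Trib3, between −0.22 and 0.29 for Sesn2 and between −0.58 and 0.067 for Atf5. In middle-aged-treated against young libraries they ran between −1.07 and 0.23 for Trib3, between −0.22 and 0.28 for Ddit3, between −0.23 and 0.39 for Phgdh, between −0.071 and 0.13 for Shmt2 and between −0.37 and 0.012 for Sesn2. The order of levels per kb kept Atf4 first and Trib3 last throughout, Asns and Atf5 changed places in 5 of the fits with a library left out, and the exon union gave the order of the longest transcript.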
